A study of Mus musculus with 8 samples.

Results

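Suclg2 encodes the GTP-forming beta subunit of succinyl-CoA synthetase, the enzyme of the tricarboxylic acid (TCA) cycle that turns succinyl-CoA into succinate. It is described here with its alpha partner Suclg1, with the ATP-forming beta subunit Sucla2, and with 6 other cycle enzymes: Cs, Idh2, Idh3a, Ogdh, Fh1 and Mdh2. These 9 genes were found by symbol among the 24505 genes of the deposited expression tables, and all 9 were among the 13428 genes tested. Suclg2 was picked because its level was lower in the libraries labelled knockout in both cell states. Its knockout values are therefore a description and carry no test.

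The data are 8 RNA-seq libraries from a mouse embryonic stem cell line with a conditional allele (CKO) of Ino80, which encodes the ATPase of a chromatin remodelling complex. All 4 groups are of this line, with 2 libraries each labelled wild type or knockout in the naive and in the primed state. Naive cells were kept in N2B27 medium with the MEK inhibitor PD0325901, the GSK3 inhibitor CHIR99021 and LIF at 1000 units/ml (2iL). Primed cells were kept in N2B27 with FGF-2 at 12 ng/ml, Activin A at 20 ng/ml and the tankyrase inhibitor XAV-939 at 2 uM (FAX). The protocol induced deletion with 4-OHT at 100 nM for 2 days and gave the cells 2 further days. The sources used here do not state whether wild-type cells also received 4-OHT, what drives the recombinase or how many clones were used. Separate cultures are not stated for the 2 libraries of a group, so the spread between libraries may be technical. As deposited, the variance behind a p-value is that of genes of like level, not of the gene's own libraries.

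The TCA cycle oxidises acetyl units in the mitochondrial matrix and passes their electrons to the respiratory chain. Succinyl-CoA synthetase works as a pair of 1 alpha and 1 beta subunit. The alpha subunit is shared, and the beta subunit decides whether GTP or ATP is formed, in the only substrate-level phosphorylation of the cycle. Human mutations in SUCLA2 or SUCLG1 cause mitochondrial DNA depletion. In mouse embryonic stem cells the cycle is also known as the source of alpha-ketoglutarate, a cofactor of enzymes that remove methyl groups from DNA and histones.

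The 3 synthetase genes start in promoters of unlike base composition, and these are shown because their transcripts are the ones compared most closely here. The 250 bases before each annotated start are given 5′ to 3′ on the gene's strand, from the RefSeq table of build GRCm38.p6, while the authors' build was mm9. A window was found for 8 of the 9 genes, Idh3a being the one without. Capitals mark matches, on either strand, to 5 motifs. The GC box was searched as CCGCCC and the CCAAT box by those letters. The letters of the YY1 motif were AANATGGC, those of the NRF1 core GCGCANGC and those of the TATA box TATAAA. GC boxes overlap at 1 place in Suclg2. The windows are chr6:95718847-95719096 on the minus strand for Suclg2, chr14:73552536-73552785 on the plus strand for Sucla2 and chr6:73248255-73248504 on the plus strand for Suclg1.
Suclg2: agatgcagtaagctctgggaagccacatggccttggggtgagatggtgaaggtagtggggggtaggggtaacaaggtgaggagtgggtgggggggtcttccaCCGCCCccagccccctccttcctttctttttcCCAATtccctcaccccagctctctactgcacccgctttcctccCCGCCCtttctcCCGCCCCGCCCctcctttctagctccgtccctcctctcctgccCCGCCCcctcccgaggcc
Sucla2: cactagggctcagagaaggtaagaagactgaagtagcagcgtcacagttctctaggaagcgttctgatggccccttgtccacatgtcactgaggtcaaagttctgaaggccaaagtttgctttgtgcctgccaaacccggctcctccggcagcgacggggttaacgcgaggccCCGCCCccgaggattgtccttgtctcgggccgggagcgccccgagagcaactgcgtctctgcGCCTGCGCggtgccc
Suclg1: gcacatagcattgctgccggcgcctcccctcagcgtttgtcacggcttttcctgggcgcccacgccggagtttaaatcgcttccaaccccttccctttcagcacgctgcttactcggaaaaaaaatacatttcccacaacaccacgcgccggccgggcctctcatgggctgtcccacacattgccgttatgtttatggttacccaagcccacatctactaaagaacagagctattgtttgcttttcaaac
The Suclg2 sequence held 5 GC boxes and 1 CCAAT match, with a GC content of 64.4%. That of Sucla2 held 1 GC box and 1 NRF1 core, with a GC content of 61.2%. That of Suclg1 held none of these motifs and had a GC content of 53.2%. With the 50 bases after the start, which are not printed, the window of Suclg2 held 7 GC boxes. The end of this longer window occurred in an annotated transcript of the gene for Sucla2 and Suclg1 but not for Suclg2. Among 32851 promoter windows of 300 bases, 35.7% held the GC box, 37.4% CCAAT, 6.05% the YY1 motif, 9.95% the NRF1 core and 13.6% the TATA box. A match is a description of letters and not of binding.

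Expression is given in RPKM (reads per kilobase of transcript, scaled to the mapped reads), as the authors deposited it. The RPKM of a library summed to between 341480 and 507598, and read counts cannot be had from these values, so the depth is unknown. The authors scaled naive and primed libraries apart, so levels of the 9 genes are compared only within a state. Differences are of log2(RPKM + 1), knockout minus wild type, which understates changes of low genes. Genes were called at an adjusted p below 0.05 from limma, a linear model across all genes. In the primed state the median difference of all genes tested was -0.53 as deposited, with 559 genes called higher and 7958 lower. Within-state loess normalization, which removes shifts that depend on the level, gave 4965 higher and 4905 lower. Quantile normalization gave 5293 and 4652, and centring on the median gave 5580 and 3163. The median residual SD was 0.179 as deposited and 0.0503 after loess. A difference of nearly the same size could therefore pass after loess alone. Loess values are therefore given beside the deposited primed differences. Loess would also remove a true shift of most genes, so it is a second scale and not a correction. The cause of the deposited shift was not tested, and the deposited genes hold no ERCC rows.

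Ino80 itself separated the primed libraries but not the naive ones. Its naive level was 15.9 and 15.1 RPKM in knockout-labelled libraries and 17.0 and 14.5 RPKM in the wild type, and these groups overlapped. The naive log2 difference was -0.02 as deposited (limma adjusted p = 0.975). After loess it was -0.10 and passed (limma adjusted p = 0.0461), where 28.4% of all genes were called lower. The primed level of Ino80 was 9.12 and 8.74 RPKM against 15.9 and 20.3 RPKM, a fall of 0.93 on the log2 scale (SE 0.18, limma adjusted p = 2.0e-06) and of 0.28 after loess. As deposited, 76.4% of all genes had both primed knockout libraries below both wild-type libraries, and 59.3% were called lower. The primed separation of Ino80 is therefore common among all genes. The files give 1 value per gene and not per exon, so reads from outside a deleted part would be included. The naive groups are called knockout by label only.

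Markers were summed to check the labels, and sums of different states rest on values scaled apart. The 8 naive-state markers summed to between 812 and 921 RPKM in naive libraries. In primed libraries they summed to between 8.07 and 11.2 RPKM in the wild type and between 3.40 and 3.43 RPKM in the knockout. Of the 8 pluripotent cell markers, 2 were called higher and 3 lower in primed cells (4.16% and 59.3% of all genes). Primed group means, wild type then knockout, were 117 and 37.1 RPKM for Nanog, 128 and 36.7 for Lin28a and 582 and 658 for Pou5f1. The 8 primed-state markers summed to between 43.1 and 51.7 RPKM in naive wild type and between 58.7 and 62.8 RPKM in naive knockout. In primed libraries they summed to between 292 and 343 RPKM in the wild type and between 302 and 329 RPKM in the knockout. Within that sum single markers differed, with group means from wild type to knockout of 2.42 and 35.5 RPKM for T, 5.15 and 18.2 RPKM for Fgf5, 15.2 and 4.80 RPKM for Sox3 and 17.0 and 8.34 RPKM for Pou3f1. The 8 fibroblast markers summed to between 1.09 and 2.60 RPKM in naive libraries. In primed libraries they summed to between 38.2 and 52.3 RPKM in the wild type and between 16.0 and 16.8 RPKM in the knockout, with 5 of the 8 at 1 RPKM or more in both. The 8 neural markers summed to between 46.0 and 53.9 RPKM in naive wild type and between 87.8 and 91.7 RPKM in naive knockout, and the primed sums overlapped at between 141 and 168 RPKM. In primed cells Nes had group means of 73.6 RPKM in wild type and 134 RPKM in knockout, while Pax6 had 9.04 and 0.960 RPKM, Sox1 9.63 and 1.68 RPKM and Tubb3 55.7 and 20.7 RPKM. The 8 endoderm markers summed to between 5.06 and 7.76 RPKM in primed wild type, between 2.97 and 3.35 RPKM in primed knockout and between 12.3 and 18.4 RPKM in naive wild type and between 18.4 and 21.4 RPKM in naive knockout. The part of these markers in the results below was not tested. In bulk RNA, fewer cells of a type and less RNA per cell cannot be told apart.

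Suclg2 RNA was several-fold lower in both states. In naive cells it was 6.98 and 7.43 RPKM in the knockout libraries and 32.4 and 31.6 RPKM in the wild type. The knockout mean of 7.20 ± 0.314 RPKM (SD, n = 2) was 22.5% of the wild-type mean of 32.0 ± 0.619 RPKM (SD, n = 2). Both knockout libraries lay far below both wild-type libraries, and each pair was close together. The log2 difference was -2.01, and 4 of the 13428 genes had a more negative one.

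The primed state gave much the same picture. Suclg2 was 7.64 and 7.29 RPKM in the knockout libraries and 38.2 and 46.9 RPKM in the wild type. The knockout mean of 7.47 ± 0.249 RPKM (SD, n = 2) was 17.6% of the wild-type mean of 42.5 ± 6.14 RPKM (SD, n = 2). The groups were again far apart, with the wider spread among the wild-type libraries. The log2 difference was -2.36, or -1.78 after loess, and 125 genes had a more negative one as deposited. Genes within 0.5 log2 of the level of Suclg2 had a median log2 difference of 0.07 in naive and -0.52 in primed cells. Since Suclg2 was chosen for its low knockout level, these medians are given for scale only.

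**Figure D1:**
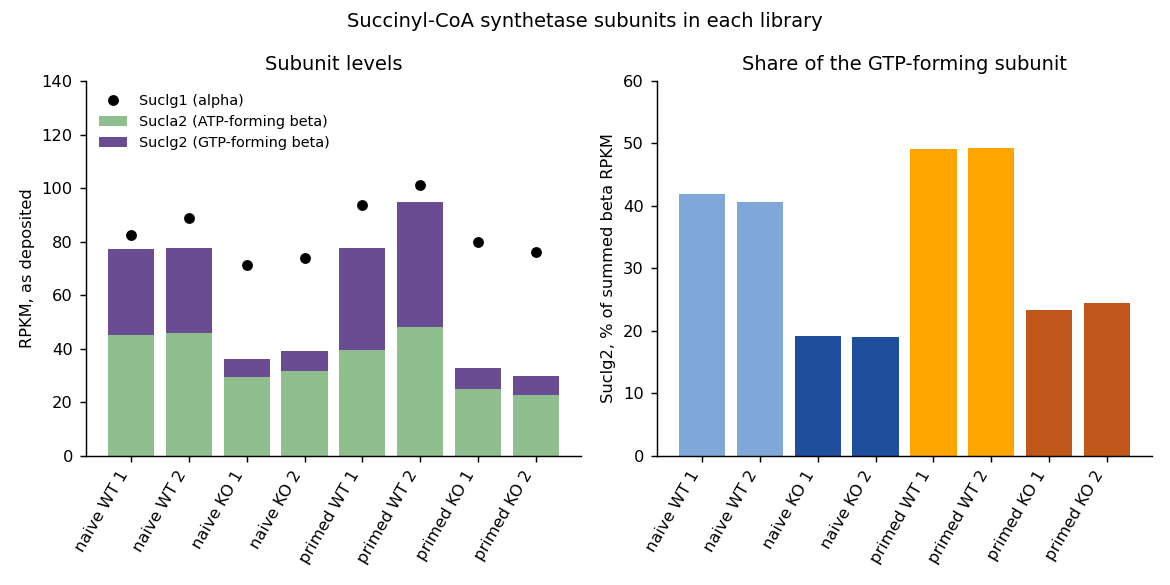
RNA of the succinyl-CoA synthetase subunits in each of the 8 libraries, in RPKM as deposited (left: stacked bars for the beta subunits, points for the alpha subunit Suclg1), and the share of Suclg2 in the summed RPKM of both beta subunits in percent (right). The share lies between 40.7% and 49.3% in wild-type libraries and between 18.9% and 24.4% in knockout libraries.

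Sucla2, the ATP-forming beta subunit, also fell in both states, by less than Suclg2 was lowered. In naive cells it was 29.3 and 31.8 RPKM in knockout and 45.0 and 46.0 RPKM in wild-type libraries. The groups did not overlap, and the knockout mean was 67.2% of the wild-type mean (log2 difference -0.56, SE 0.13, limma adjusted p = 2.3e-04). Leaving out naive knockout replicate 1 took the limma adjusted p to 0.106, and a variance without trend took it to 0.0586.

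In primed cells Sucla2 was 25.0 and 22.6 RPKM in knockout and 39.4 and 48.1 RPKM in wild-type libraries. The knockout mean was 54.3% of the wild-type mean (log2 difference -0.85, SE 0.13, limma adjusted p = 1.8e-10). After loess the naive and primed differences were -0.61 and -0.39 (limma adjusted p = 5.5e-06 and 3.0e-05), whereas median centring left the primed value at -0.15 (adjusted p = 0.302).

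Suclg1, the shared alpha subunit, stood closer to the wild type. In naive cells it was 71.3 and 73.7 RPKM in knockout and 82.5 and 88.9 RPKM in wild-type libraries. The groups did not overlap, but the log2 difference of -0.24 (SE 0.10) did not pass as deposited (limma adjusted p = 0.0916), while -0.26 after loess did (adjusted p = 9.5e-05). Primed levels were 79.9 and 76.1 RPKM in knockout and 93.7 and 101 RPKM in wild-type libraries. This difference of -0.32 passed as deposited (limma adjusted p = 0.0023), but not at -0.05 after loess (adjusted p = 0.137), and median centring turned it to 0.38 (adjusted p = 0.0656). The direction of Suclg1 in primed cells thus hung on the scaling.

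Ratios within a library do not depend on a factor common to all its genes, but a shift that depends on the level does not cancel in them. Genes near the level of Suclg2 had a primed median log2 difference of -0.52, and those near Suclg1 one of -0.27. In wild-type naive libraries Suclg2 made up 41.9% and 40.7% of the summed RPKM of both beta subunits, and in naive knockout libraries 19.2% and 18.9%. In primed libraries it made up 49.2% and 49.3% in the wild type and 23.4% and 24.4% in the knockout. The balance of the beta transcripts was thus tilted to the ATP-forming subunit in every knockout library. Because Suclg2 was chosen for its low knockout level, this tilt is a description and no test. Sucla2 was 1.39 and 1.46 times as high as Suclg2 in naive wild type and 4.20 and 4.28 times in naive knockout. In primed cells Sucla2 was 1.03 and 1.03 times as high in the wild type and 3.27 and 3.09 times in the knockout.

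The sum of both beta subunits was also lower relative to the alpha subunit. It was 0.938 and 0.872 times the RPKM of Suclg1 in naive wild type and 0.509 and 0.532 times in naive knockout. In primed cells it was 0.829 and 0.937 times in the wild type and 0.409 and 0.392 times in the knockout. Beta transcripts per alpha transcript were therefore lower in all 4 knockout libraries than in any wild-type library of their state. The sum includes Suclg2, chosen for its low knockout level, so this too is a description and no test. The log2 ratio of Suclg2 to Sucla2 differed between knockout and wild type by -1.58 in naive and -1.63 in primed cells. That of Suclg2 to Suclg1 differed by -1.91 and -2.18, and that of Sucla2 to Suclg1 by -0.33 and -0.55. RNA ratios do not give the amounts of the protein subunits, which were not measured here.

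**Figure D2:**
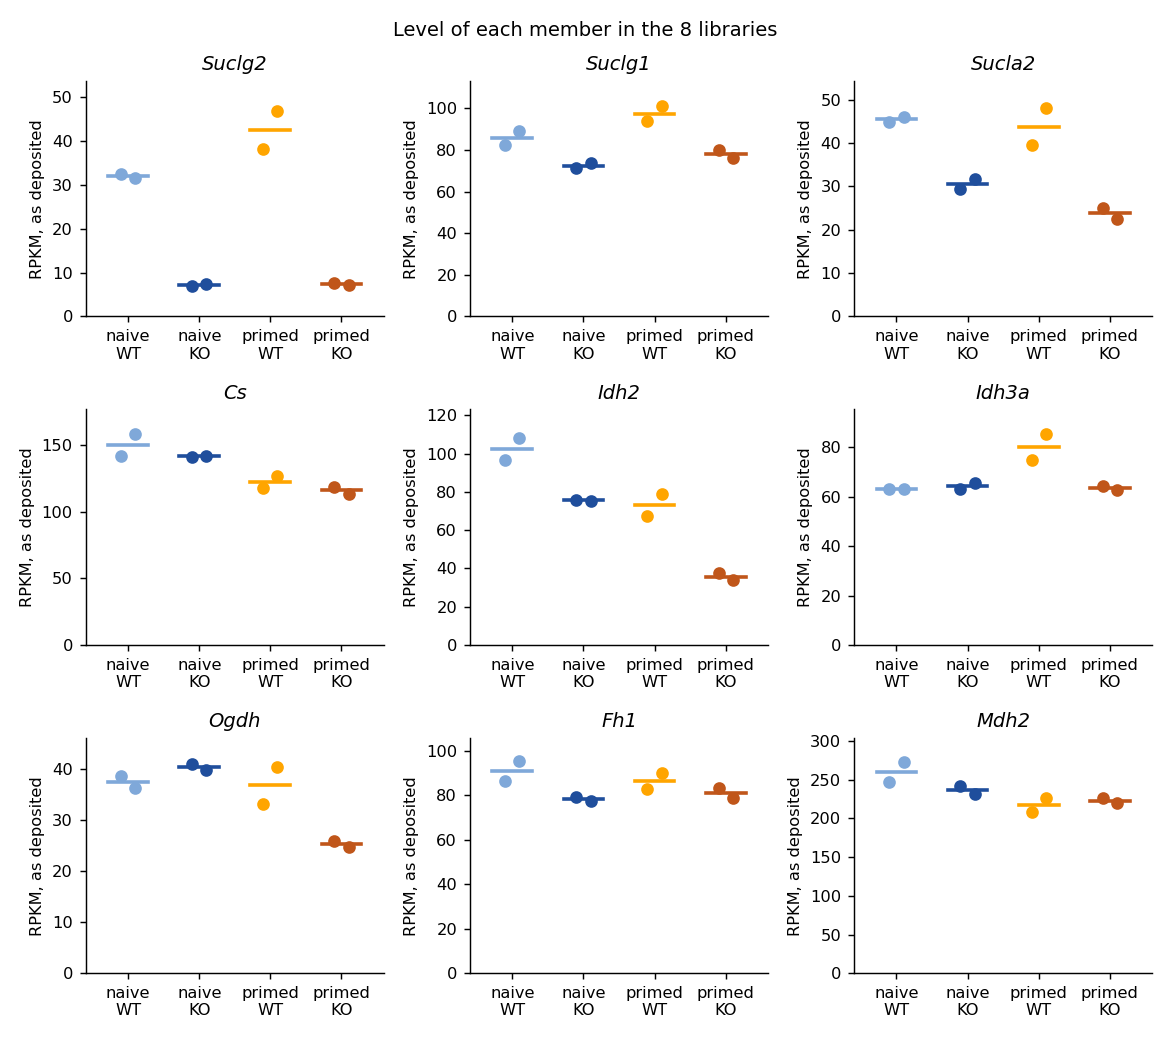
RPKM as deposited of the 9 genes in the 8 libraries, with points for libraries and lines for the group means of 2. Suclg2 lies at 6.98 and 7.43 RPKM in naive and at 7.64 and 7.29 RPKM in primed knockout libraries, while Cs overlaps between knockout and wild type in both states.

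In wild-type cells the transcripts of the cycle spanned a wide range of levels in RPKM, a scale per length. In naive wild type the order of the means, from the top, was Mdh2 (259.7 RPKM), Cs, Idh2, Fh1, Suclg1, Idh3a, Sucla2, Ogdh and Suclg2 (32.0 RPKM), and of the neighbours in this order only Fh1 and Suclg1 overlapped between libraries. In primed wild type the order was Mdh2 (217 RPKM), Cs, Suclg1, Fh1, Idh3a, Idh2, Sucla2, Suclg2 and Ogdh (36.7 RPKM), and the overlapping neighbours were Fh1 with Idh3a, Idh3a with Idh2, Sucla2 with Suclg2 and Suclg2 with Ogdh. The ATP-forming and GTP-forming subunits thus stood side by side in primed wild type. In knockout libraries Suclg2 was the lowest of the 9 in both states.

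Few of the members other than Suclg2 were called in naive cells. There 2 of these 8 were called, both lower (Sucla2 and Idh2), where 5.85% of all genes were called lower and 6.08% higher (11.9% in all). Without naive wild-type replicate 1 the naive calls over all genes were 1427 higher and 595 lower, and without replicate 2 they were 515 higher and 1207 lower. In primed cells 5 of the 8 were called, all lower (Suclg1, Sucla2, Idh2, Idh3a and Ogdh), where 59.3% of all genes were called lower and 4.16% higher (63.4% in all). The primed count is near the background and shows nothing particular to these genes. Their median log2 difference was -0.17 in naive and -0.32 in primed cells, against 0.05 and -0.53 for all genes tested. After loess 6 of the 8 were called lower and 0 higher in naive cells, where 28.4% of all genes were called lower and 29.1% higher. In primed cells 2 were then lower (Sucla2 and Idh2) and 3 higher (Cs, Fh1 and Mdh2), where 36.5% of all genes were lower and 37.0% higher.

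Counted by overlap, all 9 with Suclg2 included, 6 had both naive knockout libraries below both wild-type libraries, 2 had them above (Idh3a and Ogdh) and 1 overlapped. Of all genes, 21.0% lay below and 31.2% above in this way. In primed cells 6 lay below, 0 above and 3 overlapped (Cs, Fh1 and Mdh2), where 76.4% of all genes lay below and 6.77% above. Since Suclg2 was chosen by these contrasts, nothing is read from its part in these counts.

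Citrate synthase, Cs, joins acetyl-CoA to oxaloacetate and opens the cycle. Its level was 141 and 142 RPKM in naive knockout and 142 and 158 RPKM in naive wild-type libraries. Primed libraries held 119 and 113 RPKM in knockout and 118 and 126 RPKM in wild-type libraries. Knockout and wild type overlapped in both states, and neither difference passed (limma adjusted p = 0.657 and 0.462). After loess both passed, at -0.07 in naive (limma adjusted p = 0.0360) and 0.17 in primed cells (adjusted p = 3.8e-04), so that the primed sign depended on the scaling.

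Isocitrate dehydrogenases make alpha-ketoglutarate, with NADP in the case of Idh2 and with NAD in the case of the Idh3a catalytic subunit. Idh2 fell in both states. It was 75.9 and 75.3 RPKM in naive knockout and 96.4 and 108 RPKM in naive wild-type libraries, a knockout mean of 74.0% of the wild type (log2 difference -0.43, SE 0.10, limma adjusted p = 6.2e-04). Its primed level was 37.6 and 33.7 RPKM against 67.3 and 78.7 RPKM, a mean of 48.9% (log2 difference -1.01, SE 0.10, limma adjusted p = 1.6e-21). No Idh2 groups overlapped, and the primed libraries were set further apart. After loess the differences were -0.44 and -0.65 and both passed (limma adjusted p = 5.5e-06 and 1.6e-07). The naive call was lost without naive knockout replicate 1 (limma adjusted p = 0.0723) or 2 (0.0871) or wild-type replicate 2 (0.067), and the primed one on median centring (difference -0.32, adjusted p = 0.101).

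Idh3a did not follow Idh2. Its naive level was 63.2 and 65.7 RPKM in knockout and 63.1 and 63.2 RPKM in wild-type libraries (log2 difference 0.03, limma adjusted p = 0.928). Its primed level was 64.5 and 62.9 RPKM against 74.9 and 85.6 RPKM, a log2 difference of -0.32 that passed as deposited (limma adjusted p = 0.0032). The primed libraries were separate, but the difference after loess was -0.03 (adjusted p = 0.424). Without primed knockout replicate 2 the deposited value no longer passed (limma adjusted p = 0.0624).

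Ogdh, the first subunit of the complex that makes succinyl-CoA and so the step just before the synthetase, was 41.0 and 39.7 RPKM in naive knockout and 38.6 and 36.3 RPKM in naive wild-type libraries. In primed cells it was 25.8 and 24.6 RPKM in knockout and 33.2 and 40.3 RPKM in wild-type libraries. The naive difference of 0.11 did not pass (limma adjusted p = 0.706), and the primed one of -0.52 did as deposited (adjusted p = 1.4e-04) but not at -0.04 after loess (adjusted p = 0.251). Ogdh thus showed no difference in either state that held on both scales. Its paralogue Ogdhl did rise in naive cells on both, as given below.

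Fh1, fumarase, and Mdh2, the malate dehydrogenase that closes the cycle, differed little. Fh1 was 79.0 and 77.4 RPKM in naive knockout and 86.3 and 95.1 RPKM in naive wild-type libraries, and 83.3 and 78.5 RPKM against 82.8 and 89.7 RPKM in primed ones. Mdh2 was 241 and 231 RPKM in naive knockout and 247 and 273 RPKM in naive wild-type libraries, and 226 and 219.5 RPKM against 208 and 227 RPKM in primed ones. None of these 4 comparisons passed as deposited (limma adjusted p between 0.152 and 0.690). After loess the primed differences were 0.18 for Fh1 and 0.25 for Mdh2, and the naive ones -0.23 and -0.10, and all 4 passed (limma adjusted p between 1.2e-04 and 0.0242). Whether these small differences count as changes is thus set by the scaling and the variance that comes with it.

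**Figure D3:**
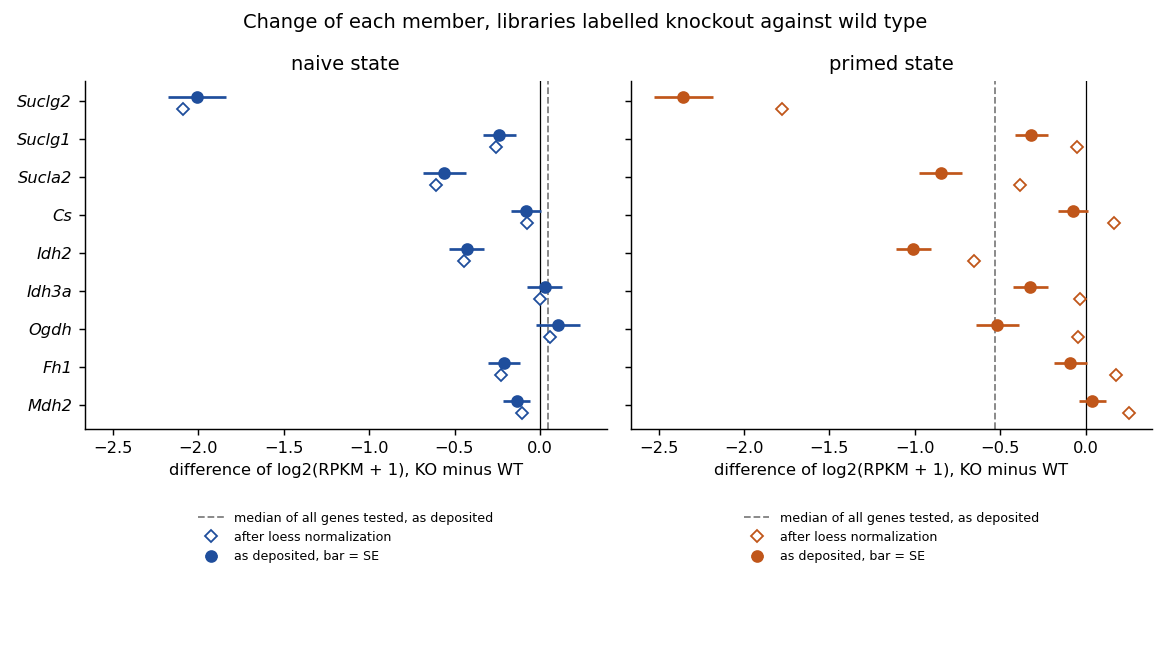
Log2 difference, knockout minus wild type, of each of the 9 genes in the naive (left) and primed (right) state, with the deposited values and their SE as filled points, the values after loess as open diamonds and the median of all genes as a dashed line. Suclg2 stands apart at -2.01 and -2.36, and the dashed line in the primed state lies at -0.53.

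Among 9 further genes of the cycle, Sdha and Sdhc had the most negative log2 differences in both states. Both encode subunits of succinate dehydrogenase, which takes up the succinate made by the synthetase. In naive cells 4 of the 9 were called lower, among them Sdha, Sdhc and Sdhd, and 0 higher, where 5.85% of all genes were called lower. The median log2 difference was -0.25. In primed cells 8 of 9 were called lower and 0 higher, where 59.3% of all genes were called lower, with a median of -0.53, equal to that of all genes to 2 decimals. After loess 7 were lower in naive cells, where 28.4% of all genes were, and in primed cells 6 were lower and 2 higher, where 36.5% and 37.0% of all genes were.

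Sdha, the flavoprotein that oxidises succinate, fell most clearly. It was 54.8 and 55.0 RPKM in naive knockout and 105 and 113 RPKM in naive wild-type libraries (log2 difference -0.98, limma adjusted p = 9.4e-21). Primed libraries gave 51.4 and 49.4 RPKM against 122 and 132 RPKM (log2 difference -1.32, limma adjusted p = 3.9e-39). Knockout libraries thus held less than their wild-type partners by a wide margin in both states, and after loess the differences were -1.0 and -1.04. Sdhc, a membrane anchor of the complex, was 60.1 and 59.2 RPKM against 92.6 and 98.2 RPKM in naive cells (log2 difference -0.67, limma adjusted p = 2.1e-09). In primed cells Sdhc was 47.5 and 44.3 RPKM against 104 and 113 RPKM (log2 difference -1.22, limma adjusted p = 1.8e-32). After loess Sdhc was at -0.69 in naive and -0.93 in primed cells. Median centring left Sdha at -0.62 and Sdhc at -0.53 in primed cells.

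Genes that feed pyruvate into the cycle were called about as often as all genes. Of 13 tested, 1 was called lower in naive cells (5.85% of all genes) and 8 in primed cells (59.3% of all genes), with none called higher, and the medians were -0.10 and -0.62. After loess 3 were higher and 6 lower in naive cells (29.1% and 28.4% of all genes). In primed cells 4 were then higher and 5 lower (37.0% and 36.5% of all genes). Pdp2, a phosphatase that activates pyruvate dehydrogenase, was 17.3 and 17.3 RPKM in naive knockout and 36.3 and 33.5 RPKM in naive wild-type libraries (log2 difference -0.97, limma adjusted p = 3.9e-05). Its primed difference of -0.34 did not pass and became 0.44 after loess. Pdk1, a kinase that inactivates the same enzyme, was 8.07 and 7.85 RPKM in primed knockout and 18.6 and 23.2 RPKM in primed wild-type libraries (log2 difference -1.28, limma adjusted p = 6.6e-10, and -0.64 after loess). Pdha1, the catalytic subunit of that enzyme, was 35.4 and 32.3 RPKM against 71.3 and 79.3 RPKM in primed cells (log2 difference -1.13, limma adjusted p = 5.4e-26, and -0.77 after loess). Pdha1 overlaps Map3k15 in the annotation, and the sources used here do not state the strand counted.

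Anaplerotic and shuttle genes held the strongest primed falls of the lists. Of 20 tested genes, 4 were called lower and 0 higher in naive cells, where 5.85% and 6.08% of all genes were, and 10 lower and 1 higher in primed cells, where 59.3% and 4.16% were, with medians of -0.07 and -0.40. After loess 5 were higher and 12 lower in naive cells, where 29.1% of all genes were higher and 28.4% lower. In primed cells 10 were then higher and 9 lower, against 37.0% higher and 36.5% lower of all genes. Gpt2, which makes alpha-ketoglutarate from glutamate and pyruvate, was 4.10 and 4.05 RPKM in primed knockout and 85.2 and 97.2 RPKM in primed wild-type libraries (log2 difference -4.18, limma adjusted p = 1.4e-177, and -3.62 after loess). Pck2, the mitochondrial enzyme that turns oxaloacetate into phosphoenolpyruvate, was 8.60 and 7.95 RPKM against 110 and 131 RPKM (log2 difference -3.71, limma adjusted p = 1.1e-135, and -3.25 after loess). Both primed log2 differences were more negative than that of Suclg2. In naive cells Pck2 was 10.5 and 11.3 RPKM against 27.0 and 23.9 RPKM (log2 difference -1.15, limma adjusted p = 1.1e-12).

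Acly, which makes cytosolic acetyl-CoA from citrate, was the 1 gene of that list called higher as deposited in primed cells. It was 178 and 168 RPKM in primed knockout and 103 and 111 RPKM in primed wild-type libraries (log2 difference 0.69, limma adjusted p = 5.6e-15, and 0.92 after loess). The naive difference of Acly was -0.35 (limma adjusted p = 6.0e-04), lost without naive knockout replicate 2 (0.0925). Gpt2 in naive cells was 24.6 and 24.4 RPKM against 34.0 and 32.3 RPKM (log2 difference -0.42, limma adjusted p = 0.0358), lost on leaving out any naive library (0.0994 to 0.430) or either primed knockout library (0.0583 and 0.0596).

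Genes that make or use succinyl-CoA by other routes were called about as often as all genes in naive cells. Of 13 tested, 1 was called higher and 1 lower in naive cells (6.08% and 5.85% of all genes), and 0 higher and 9 lower in primed cells (4.16% and 59.3% of all genes), with medians of 0.11 and -0.74. After loess 5 were higher and 4 lower in naive cells (29.1% and 28.4% of all genes). In primed cells 5 were then higher and 5 lower (37.0% and 36.5% of all genes). Oxct1, which moves the CoA of succinyl-CoA onto ketone bodies, was 19.7 and 19.9 RPKM in naive knockout and 33.3 and 31.7 RPKM in naive wild-type libraries (log2 difference -0.69, limma adjusted p = 1.9e-06, and -0.75 after loess). In primed cells its difference was -0.97 (limma adjusted p = 9.0e-14), or -0.61 after loess. Ogdhl, a paralogue of Ogdh, rose in naive cells, from 62.9 and 65.6 to 92.9 and 89.4 RPKM (log2 difference 0.50, limma adjusted p = 3.2e-05, and 0.48 after loess). The sources used here do not state how reads shared by these paralogues were counted.

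In primed cells the 2 most negative log2 differences of that list, as deposited, were those of Aldh6a1 and Dhtkd1. Aldh6a1, which makes propionyl-CoA in valine breakdown, was 1.96 and 1.71 RPKM in knockout and 11.7 and 15.1 RPKM in wild-type libraries (log2 difference -2.34, limma adjusted p = 8.9e-21, and -1.56 after loess). It overlaps Bbof1 in the annotation. Dhtkd1, a subunit of the 2-oxoadipate dehydrogenase complex, was 4.39 and 4.08 RPKM against 11.5 and 14.8 RPKM (log2 difference -1.43, limma adjusted p = 1.2e-09, and -0.68 after loess). Both knockout pairs were tight and well below the wild type.

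Genes that keep up mitochondrial DNA were listed because of the human synthetase disorders. Of 14 tested, 1 was called higher and 0 lower in naive cells (6.08% and 5.85% of all genes), and 0 higher and 8 lower in primed cells (4.16% and 59.3% of all genes), with medians of 0.16 and -0.51. Nme4, a mitochondrial nucleoside diphosphate kinase, was 52.3 and 51.3 RPKM in naive knockout and 37.0 and 37.2 RPKM in naive wild-type libraries (log2 difference 0.47, limma adjusted p = 5.2e-04), a call lost without naive knockout replicate 1 (0.0930) or 2 (0.0608). Dguok, the mitochondrial deoxyguanosine kinase, was 7.45 and 6.43 RPKM against 14.4 and 21.6 RPKM in primed cells (log2 difference -1.23, limma adjusted p = 4.5e-09, and -0.56 after loess). Rrm2b, a subunit of ribonucleotide reductase, was 1.65 and 1.58 RPKM against 3.98 and 6.35 RPKM (log2 difference -1.21, limma adjusted p = 6.2e-05, and -0.46 after loess). After loess the list had 7 higher and 2 lower in naive cells, where 29.1% of all genes were higher and 28.4% lower. In primed cells it had 7 higher and 4 lower, where all genes too went from 59.3% lower to 36.5% lower and 37.0% higher.

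**Figure D4:**
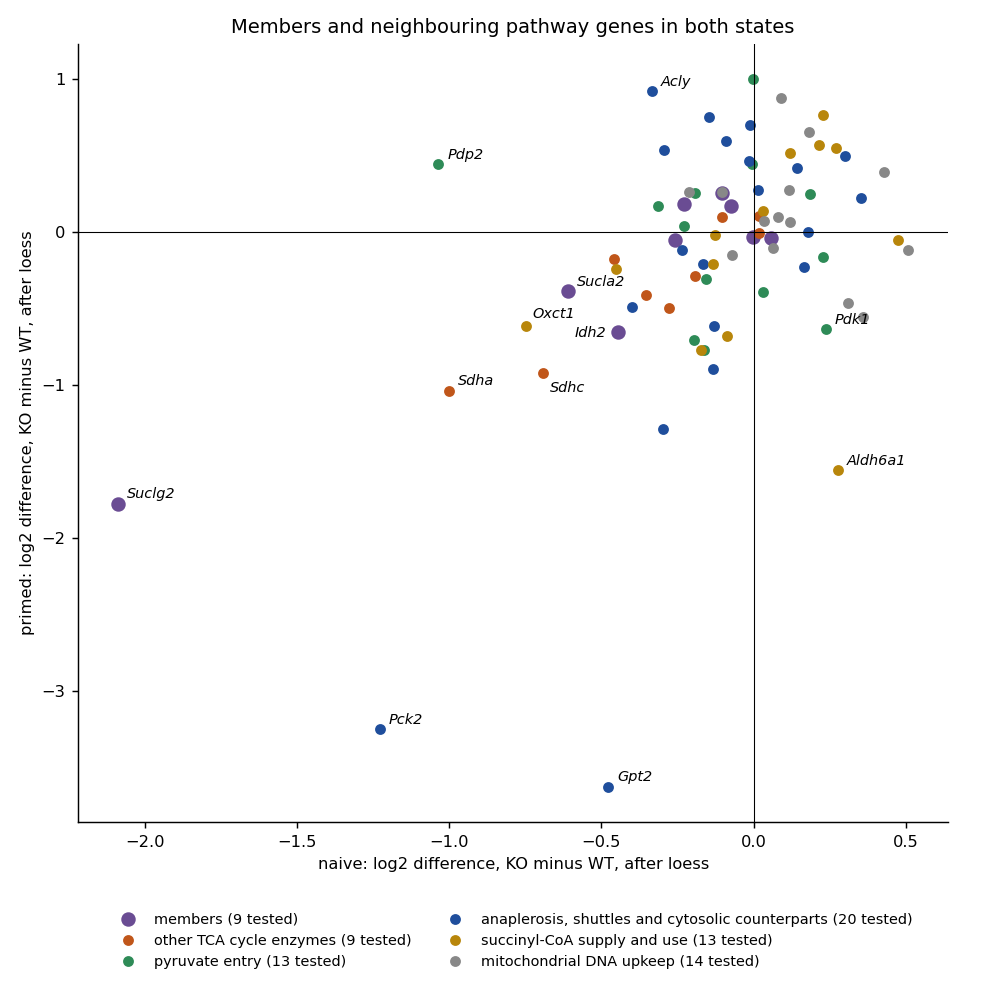
Log2 difference, knockout minus wild type after loess, in naive (horizontal) and primed (vertical) cells for the 9 genes and the tested genes of 5 pathway lists. Suclg2 lies at -2.09 and -1.78, Gpt2 and Pck2 lie lowest on the primed axis at -3.62 and -3.25, and Acly is at 0.92 on it.

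The genes whose profile over the 8 libraries was most like that of Suclg2 were ranked by Euclidean distance between log2(RPKM + 1) values centred on the wild-type mean of each state, among 8043 genes with at least 5 RPKM in the wild type of both states. They were Arhgap19 (distance 0.576), Ndufa13 (0.747), Wfdc2 (0.844), Fmc1 (0.899), Zcchc3 (0.949) and Gga3 (1.00). They were chosen for this likeness, so their values carry no test. Arhgap19, a GTPase-activating protein, was 6.98 and 6.98 RPKM in naive knockout and 25.1 and 21.8 RPKM in naive wild-type libraries. The primed values were 6.85 and 6.31 RPKM against 33.4 and 42.6 RPKM. After loess its differences were -1.70 in naive and -1.75 in primed cells, beside -2.09 and -1.78 for Suclg2. Ndufa13, a subunit of respiratory complex I that overlaps Tssk6 in the annotation, was 25.7 and 23.6 RPKM against 71.9 and 70.8 RPKM in naive cells and 17.1 and 14.5 RPKM against 78.2 and 95.8 RPKM in primed cells. After loess the primed differences were -1.96 for Ndufa13 and -2.21 for Fmc1. Fmc1, an assembly factor of ATP synthase, was 5.95 and 5.10 RPKM against 19.9 and 18.5 RPKM in naive cells and 4.66 and 4.66 RPKM against 32.9 and 47.1 RPKM in primed cells. Wfdc2, Zcchc3 and Gga3 had naive knockout means of 33.6%, 33.0% and 35.3% of the wild type. Their primed knockout means were 18.5%, 19.5% and 20.7% of it. Gga3 overlaps Mrps7 in the annotation. Whether the 6 genes share a function was not tested. Sucla2 and Suclg1 were not among these 6.

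**Figure D5:**
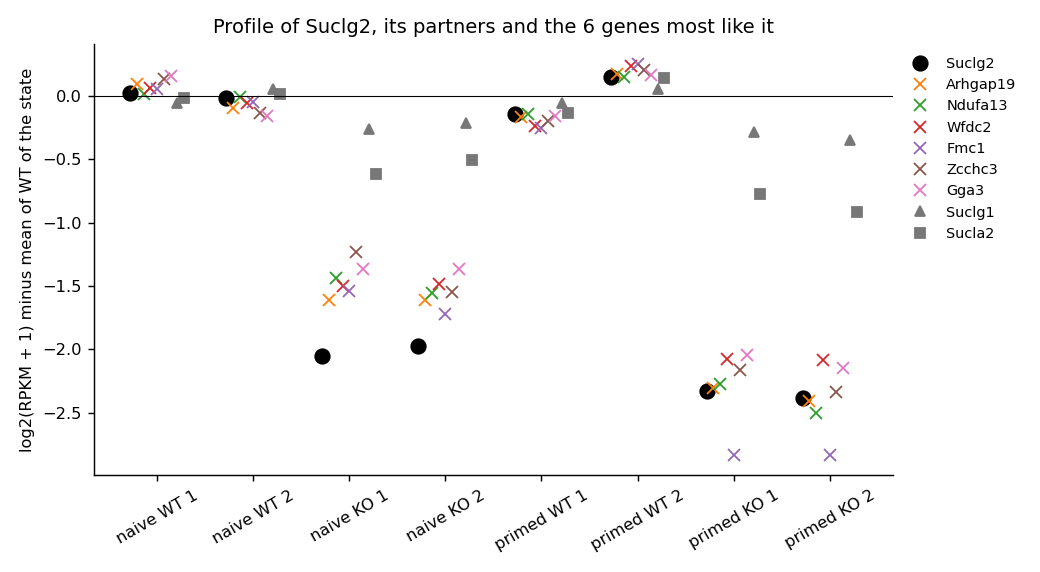
Log2(RPKM + 1) minus the wild-type mean of the state, in each of the 8 libraries, for Suclg2, its partners Suclg1 and Sucla2 and the 6 genes most like Suclg2 (smallest distance 0.576, for Arhgap19). The 6 genes follow Suclg2 downward in the knockout libraries of both states, and the partner subunits stay nearer to 0.

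The difference between the states' knockout effects, primed minus naive, was called for 3 of the 8 members other than Suclg2, all lower, where 47.4% of all genes were called lower and 2.16% higher (49.6% in all). They were Idh2 (log2 difference -0.58, SE 0.14, limma adjusted p = 3.4e-04), Ogdh (-0.62, SE 0.18, adjusted p = 0.0021) and Idh3a (-0.35, SE 0.14, adjusted p = 0.0324). The call of Idh3a was lost on leaving out any library but primed wild-type replicate 1 (limma adjusted p = 0.0520 to 0.167). The median of all genes was -0.59, so that none of the 3 stood far from the bulk. After loess only Idh2 of these kept its call, at -0.21 (limma adjusted p = 0.0025; of all genes 30.6% were then called lower and 32.7% higher), and median centring turned all 3 positive, at 0.17, 0.13 and 0.40. For Suclg2 the difference was -0.35 as deposited and 0.31 after loess, so which state had the lower value relative to its wild type is not settled by these data.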

How the data were processed

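RNA was measured in 8 libraries, 2 per genotype label and state. Lysates received ERCC spike-ins and ribosomal RNA was removed, per the labels' protocols. The authors deposited 1 RPKM value per gene; per the submitters' processing notes, the build was mm9 and the tools were affy, cutadapt 1.9, featureCounts 1.5.1 and STAR 2.5.2b. How the values were scaled is not stated. Genes reaching 1 RPKM in 2 or more libraries were tested as log2(RPKM + 1) with limma 3.58.1 (variance trend, R 4.3.3) in a model of 4 group means, adjusted by Benjamini-Hochberg over 13428 genes. Knockout was tested against wild type within naive and within primed cells, and the effects were tested against each other. The prior degrees of freedom were infinite beside 4 residual ones, so variances came from the trend alone. The procedure was tested on simulated data. Figures used matplotlib 3.10.9 in Python 3.11.15.

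The genes and lists were chosen with earlier results of these data known. Named are the 9 genes, Ino80, up to 2 called non-overlapping genes per direction and state from each of 5 lists, the 6 genes most like Suclg2 and the nearest tested gene on each side of it; 1 listed gene is not reported by name here. Alternatives were a pseudocount of 0.1, no filter or one of 5 RPKM, median centring, quantile or loess normalization, each state alone, no variance trend, the replicate number as a block, and leaving out each library.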

Additional observations from a re-analysis of the deposited data

Results flagged for a closer look

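The knockout effect differed between primed and naive cells, by limma's test of the difference (primed minus naive, log2 scale, adjusted p over all genes), in 17 of 24 genes examined, where 49.6% of all genes were called. Of the 24, 15 had been named because they were called within a state. The median of all genes was -0.59 in this comparison. All 17 kept their sign after loess, 13 with a call, where 32.7% of all genes were called higher and 30.6% lower. Median centring instead turned the sign of Idh2, Idh3a, Ogdh, Sdha, Sdhc and Nme4. It also ended the calls of Ino80 (limma adjusted p = 0.214), Pdha1 (0.398) and Ogdhl (0.652). Among the cycle enzymes the values were -0.58 for Idh2, -0.35 for Idh3a, -0.62 for Ogdh, -0.34 for Sdha and -0.55 for Sdhc. Ino80 itself gave -0.91, and its naive groups overlapped.

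The pyruvate and anaplerotic genes gave larger values: -1.60 for Pdk1, -0.99 for Pdha1, -2.56 for Pck2 and -3.76 for Gpt2. Acly was the 1 positive case, at 1.04. Genes of succinyl-CoA supply and use gave -0.87 for Ogdhl, -2.71 for Aldh6a1 and -1.42 for Dhtkd1. Genes of mitochondrial DNA upkeep gave -0.42 for Nme4, -1.68 for Dguok and -1.56 for Rrm2b. The calls lost after loess were those of Idh3a (-0.03), Ogdh (-0.10), Sdha (-0.04) and Nme4 (-0.04). Leaving out 1 library ended the call of Idh3a for 7 of 8 libraries, of Sdha for 5 and of Nme4 for 5.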

How the results depend on the processing

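With 2 libraries per group and no counts, precision rests on the spread between libraries, and depth cannot be weighed. The naive comparison called 1602 genes; median centring gave 4456, quantile normalization 7978, loess 7719, the naive state alone 2526, no variance trend 908 and the replicate block 942. Leaving out 1 library gave 552 to 2946 naive calls, 5539 to 9960 primed calls (8517 with all) and 3457 to 9269 calls of the difference (6658 with all). The fewest came without naive knockout replicate 1, primed knockout replicate 2 and primed knockout replicate 2. With the replicate block the primed count was 7672 and that of the difference 5171. Over all genes tested, the deviations of same-numbered knockout and wild-type libraries from their group means correlated by 0.314 in naive and -0.0356 in primed cells. The numbers were thus not shown to pair the libraries. Beside counts, the block ended the calls of Gpt2 in naive cells and of Idh3a, Sdha and Nme4 in the difference. A variance without trend ended the calls of Sucla2, Idh2, Gpt2, Acly, Ogdhl and Nme4 in naive cells, of Suclg1, Idh3a and Ogdhl in primed cells, and of Idh2, Idh3a, Sdha, Sdhc and Nme4 in the difference.

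The primed difference in log2 ratio became -1.49 (quantile) and -1.48 (loess) for Suclg2 over Sucla2, -1.84 and -1.83 for Suclg2 over Suclg1, and -0.35 and -0.35 for Sucla2 over Suclg1. On leaving out a library they ranged from -1.67 to -1.59, -2.27 to -2.09 and -0.64 to -0.47.

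Signs turned with the scaling, whose cause was not tested. In naive cells Idh3a, never called, went from 0.03 to -0.0023 (loess) and -0.028 (median). In primed cells, median centring gave 0.38 for Suclg1, 0.37 for Idh3a, 0.18 for Ogdh, 0.62 for Cs, 0.60 for Fh1, 0.35 for Pdp2 and 0.32 for Ogdhl. Quantile normalization gave 0.038 for Idh3a, 0.15 for Cs, 0.22 for Fh1, 0.44 for Pdp2 and 0.017 for Ogdhl, and loess 0.17 for Cs, 0.18 for Fh1 and 0.44 for Pdp2. In the difference between states, median, quantile and loess gave 0.40, 0.29 and 0.31 for Suclg2, 0.67, 0.23 and 0.21 for Suclg1, and 0.46, 0.18 and 0.14 for Oxct1. The same 3 gave 0.46, 0.23 and 0.22 for Sucla2. Median centring gave 0.17 for Idh2, 0.40 for Idh3a, 0.13 for Ogdh, 0.41 for Sdha, 0.20 for Sdhc and 0.33 for Nme4, and quantile normalization 0.022 for Idh3a and 0.0044 for Nme4. Of the values recomputed for the 9 genes, 31 lost a call and 27 gained one without turning sign.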

Other observations

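The annotated neighbours of Suclg2 on chromosome 6 were looked up by gene order in RefSeq. The nearest tested gene on one side, Kbtbd8, with 3 annotated genes between, was 7.75 and 8.10 RPKM in naive knockout and 18.0 and 15.0 RPKM in naive wild-type libraries (log2 difference -0.97, SE 0.21, limma adjusted p = 1.7e-04). In primed cells Kbtbd8 was 5.62 and 5.99 RPKM against 11.8 and 15.3 RPKM (log2 difference -1.09, limma adjusted p = 2.0e-06, and -0.37 after loess). The nearest on the other side, Fam19a4, with 9 annotated genes between, was 1.09 and 1.08 RPKM against 4.29 and 2.76 RPKM in naive cells (log2 difference -1.10, SE 0.28, limma adjusted p = 0.0018). In primed cells Fam19a4 was 4.59 and 4.52 RPKM against 4.55 and 7.28 RPKM, where the groups overlapped (log2 difference -0.29, limma adjusted p = 0.377, and 0.50 after loess). Both neighbours were thus called lower in naive knockout libraries, where 5.85% of all genes were called lower. Whether this exceeds the share of all genes was not tested. In primed cells 1 of them was called lower as deposited, where 59.3% of all genes were. After loess the primed calls went opposite ways. Kbtbd8 was called lower (limma adjusted p = 4.8e-04) and Fam19a4 higher (limma adjusted p = 1.7e-04), where 36.5% of all genes were lower and 37.0% higher. The primed calls are therefore common among all genes and show nothing particular to these neighbours.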
